A study of Mus musculus with 4 samples.

Results

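The genes described here encode the subunits of ligand-gated ion channels in 4 receptor families: ionotropic glutamate, GABA-A, glycine and nicotinic acetylcholine receptors. Members were chosen by name, as every probe whose gene name in the scanner files falls in these families, with each gene represented by its brightest probe on average. This gave 57 genes, measured by 102 probes, among 27630 genes and unnamed transcripts on the array. The only protein-coding symbol of these families in the RefSeq table that gave no member was Gabrr3, which was not analysed here. Limb and brain were taken from mouse embryos of mixed 129 and C57BL/6 background at E13.5 (days of embryonic development). In each tissue, 1 wild type (WT) sample and 1 sample with conditional knockout of Rest (CKO) were profiled, 4 arrays in all. Embryos of the CKO groups carried floxed Rest and doxycycline-inducible Cre alleles. The labels record doxycycline from E8.5 to E13.5 for all 4 samples, WT included, and name neither the promoter that drives Cre nor the number of embryos behind a sample.

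Rest encodes a zinc-finger repressor that binds a DNA element called RE1 and keeps many neuronal genes silent in non-neuronal cells. Ionotropic glutamate receptors are assembled from 4 subunits of the AMPA, delta, kainate or NMDA classes and carry most fast excitatory signals in the brain. GABA-A, glycine and nicotinic receptors are rings of subunits with a shared fold: GABA-A and glycine receptors pass chloride and mostly inhibit mature neurons, and nicotinic receptors pass cations. Nicotinic subunits divide into those of neurons and those of the neuromuscular junction, where the embryonic muscle receptor uses the gamma subunit.

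All values are log2 signals on a scale where 0 is the 75th percentile of that array, and a difference is CKO minus WT within a tissue unless stated. With 1 array per group no difference within a tissue has a replicate check, so genes there are called by size, at least 2-fold. A signal that the scanner software did not place well above background is called dark. Where 1 array of a pair was dark, the difference is a bound, written "at least", and it was set to 0 where its sign would have been opposite to the direction of detection. Probes printed 10 times per array gave the technical error of a difference: a median SD of 0.0333 log2 in limb where the dimmer signal of the pair was -2 or more, and of 0.307 where it was under -4. In brain these SDs were 0.0300 and 0.308. Variation from labelling or between embryos is not part of this error. Signals of different probes are not comparable, so levels are set against each other only for the same gene, or as sums over the same marker list.

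Non-control spots well above background made up 62.7% and 68.6% of the WT and CKO limb arrays and 64.5% and 70.7% of the WT and CKO brain arrays, so a dim gene could be measured more often on CKO arrays. The brightest Rest probe was at 1.64 and -0.37 on the WT and CKO limb arrays and at -0.78 and -1.69 on the WT and CKO brain arrays, 4.03-fold lower with ablation in limb and 1.88-fold in brain. The sources used here do not say whether it lies in the floxed part. The tissue labels were checked on the WT arrays. There 10 of 10 neuron markers were at least 2-fold higher in brain (against 15.8% of all genes compared). At least 2-fold lower were 11 of 11 measurable skeletal muscle markers (against 18.8%).

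Of the 57 receptor genes, 28 and 39 were detected on the WT and CKO limb arrays and 36 and 42 on the WT and CKO brain arrays. On all 4 arrays 24 were detected, and 13 on none. The dark genes included Grin2a, an NMDA subunit of the maturing brain, and Gabra6, a subunit of cerebellar granule cells. The others were Grin3a, Gabre, Gabrg3, Gabrq, Gabrr2, Glra3, Glra4, Chrna2, Chrna6, Chrna10 and Chrnb3. Detected in CKO limb but dark in WT limb were 11 genes, and 0 showed the opposite. Over all genes on the array, 5.76% were detected in CKO limb alone and 0.680% in WT limb alone. Chrna3, a subunit of autonomic ganglia, Gabra2 and Gabrg1 were detected on both brain arrays and dark on both limb arrays.

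**Figure D1:**
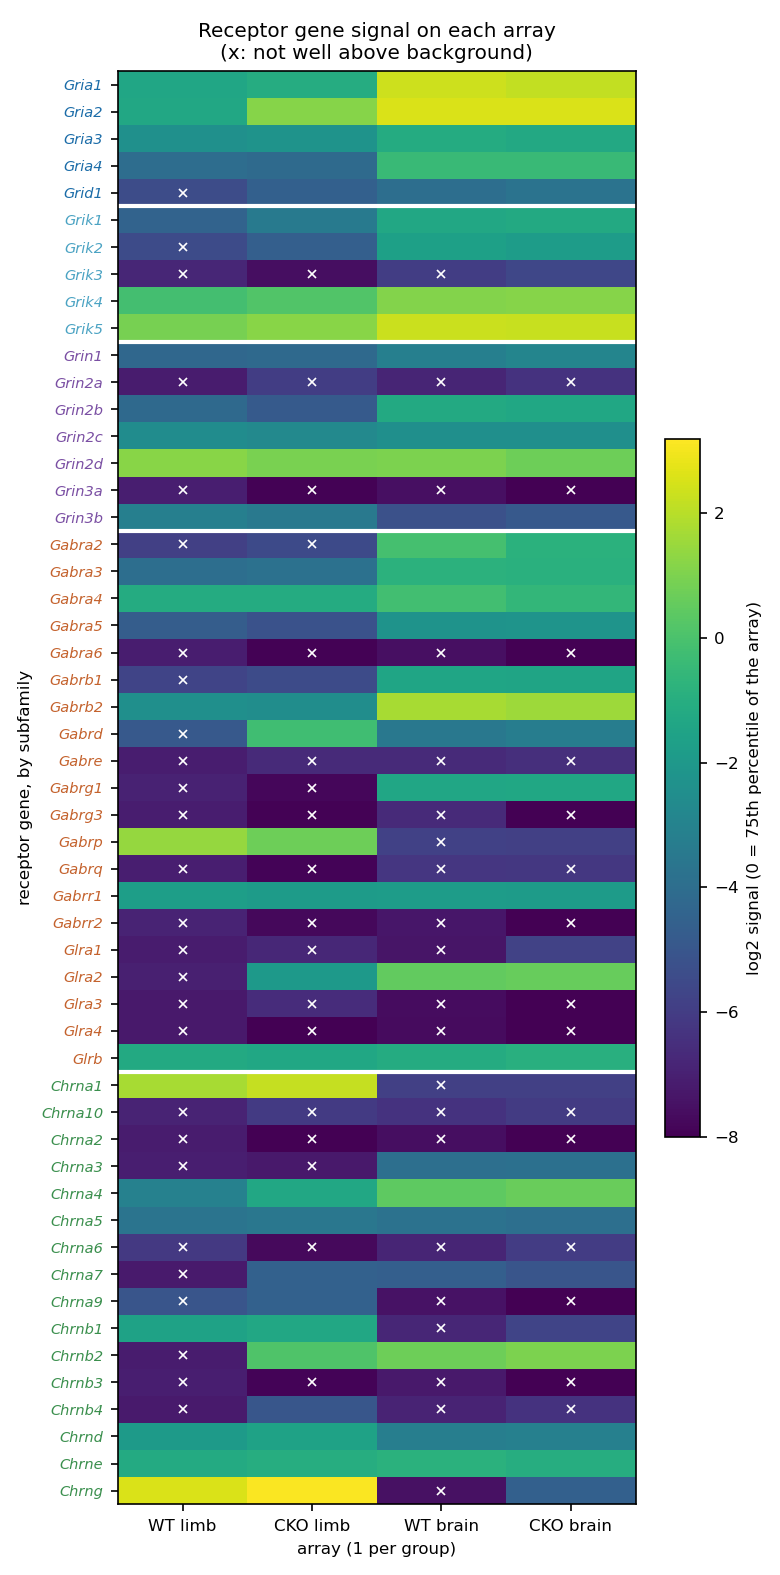
Log2 signal (colour, 0 = 75th percentile of the array) of 53 of the 57 receptor genes (rows, by subfamily from AMPA and delta at the top to nicotinic at the bottom) on each of the 4 arrays (columns, 1 per group), with a white cross where a signal was not well above background. Crosses cover 27 of these genes in WT limb and 18 in CKO limb.

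The first comparison asked where these receptors are expressed. Most were higher in brain: of 40 genes detected in WT limb or WT brain, 25 were at least 2-fold higher in WT brain (62.5%, against 15.8% of all genes compared) and 6 at least 2-fold lower (15.0%, against 18.8%). The median brain minus limb difference was 1.38 log2 over receptor genes and -0.00 over all genes. All 4 kainate subunits compared were higher in WT brain, from 1.24 log2 for Grik4 to at least 3.32 for Grik2, and so were the AMPA subunits, from 1.26 for Gria3 to 3.83 for Gria2 at their brightest probes. Probes of Gria3 disagreed: another was at -2.15 in WT limb and -3.68 in WT brain, the opposite direction. Among GABA-A subunits, Gabrb2, common at adult synapses, was 17.6-fold higher, Gabra3 9.05-fold and Gabra2 at least 28.9-fold.

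On the CKO arrays 44 receptor genes could be compared between tissues, and 22 were at least 2-fold higher in brain (against 15.1% of all genes) and 9 at least 2-fold lower (against 16.9%).

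Limb had the higher signal for the muscle nicotinic receptor. Chrng, the embryonic gamma subunit, was at 2.55 and 3.12 on the WT and CKO limb arrays and at -7.50 (dark) and -4.58 on the WT and CKO brain arrays. It was therefore high on both limb arrays, and in WT brain it was at least 240.3-fold lower than in WT limb. Chrna1 was at least 135-fold lower in WT brain, Chrnb1 at least 13.96-fold and Chrnd 2.46-fold. Chrne, the subunit that replaces gamma after birth, differed by 0.29 log2 between the WT tissues. Outside the nicotinic family, the epithelial GABA-A subunit Gabrp was at 1.41 in WT limb and 0.72 in CKO limb, against -5.85 (dark) in WT brain and -5.86 in CKO brain. Grin3b, an NMDA subunit of motor neurons, was 4.21-fold lower in WT brain than in WT limb.

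A limma fit of tissue with genotype as a block, over the 15630 genes well above background and unsaturated on all 4 arrays, could test 24 receptor genes. It called 18 of the 24 at an adjusted p under 0.05. Of the 24, 15 were called higher in brain (against 32.2% of all genes tested) and 3 lower (against 34.4%). The fit rests on 2 arrays per tissue and 1 residual degree of freedom per gene, moderated over genes. With 1 array per group, that residual is the difference between the tissues in the genotype effect. The SEs and p-values therefore measure how alike that effect was in limb and brain, not a spread between replicate samples. Nothing shows how many embryos lie behind the arrays. Gabrb2 was 4.11 ± 0.0560 log2 higher in brain (SE, adjusted p = 0.0057 by limma, higher on both brain arrays), at -2.42 and -2.51 on the WT and CKO limb arrays and at 1.72 and 1.57 on the WT and CKO brain arrays. Gria4 was 3.66 ± 0.0765 higher and Gria1 3.46 ± 0.168. The called genes that were lower in brain were Chrnd, by -1.45 ± 0.105 log2, Grin3b, by -1.75 ± 0.211, and Grin2d, by -0.23 ± 0.0535 (adjusted p = 0.0483 by limma). With the arrays centred on the median of probes detected on all 4, or with the mean of all probes, 2 receptor genes were called lower. Grin2d, an NMDA subunit of the embryonic nervous system, was at 1.21 and 0.95 on the WT and CKO limb arrays and at 0.99 and 0.71 on the WT and CKO brain arrays, so CKO limb lay just under WT brain and the tissues overlapped. Gria2 missed the threshold (2.63 ± 0.754, adjusted p = 0.0717 by limma), with a CKO limb signal far from that of WT limb. Grik5 was called at 1.23 ± 0.110 and was at 0.90 and 1.19 on the WT and CKO limb arrays and at 2.29 and 2.27 on the WT and CKO brain arrays.

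The second comparison asked which receptor genes differ in limb when Rest is ablated. In CKO limb 8 of the 39 genes compared were at least 2-fold higher (20.5%, against 2.49% of all 18452 genes compared) and 0 at least 2-fold lower (against 2.16%). They included the neuronal nicotinic genes Chrnb2 and Chrna4, the GABA-A gene Gabrd, the glycine receptor gene Glra2, the AMPA gene Gria2 and the kainate gene Grik1. The median difference was 0.16 log2 over the 39 receptor genes and -0.02 over all genes. It was 0.10 over genes measured on both arrays, 0.08 with normexp background correction and 0.01 with the mean of all probes. Of the 39, 29 had a measured difference or a bound of less than 1.5-fold in either direction. For a gene with a bound, the true difference may be larger. Measured on both limb arrays were 28 of the 39, and 3 of the 8 higher genes.

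**Figure D2:**
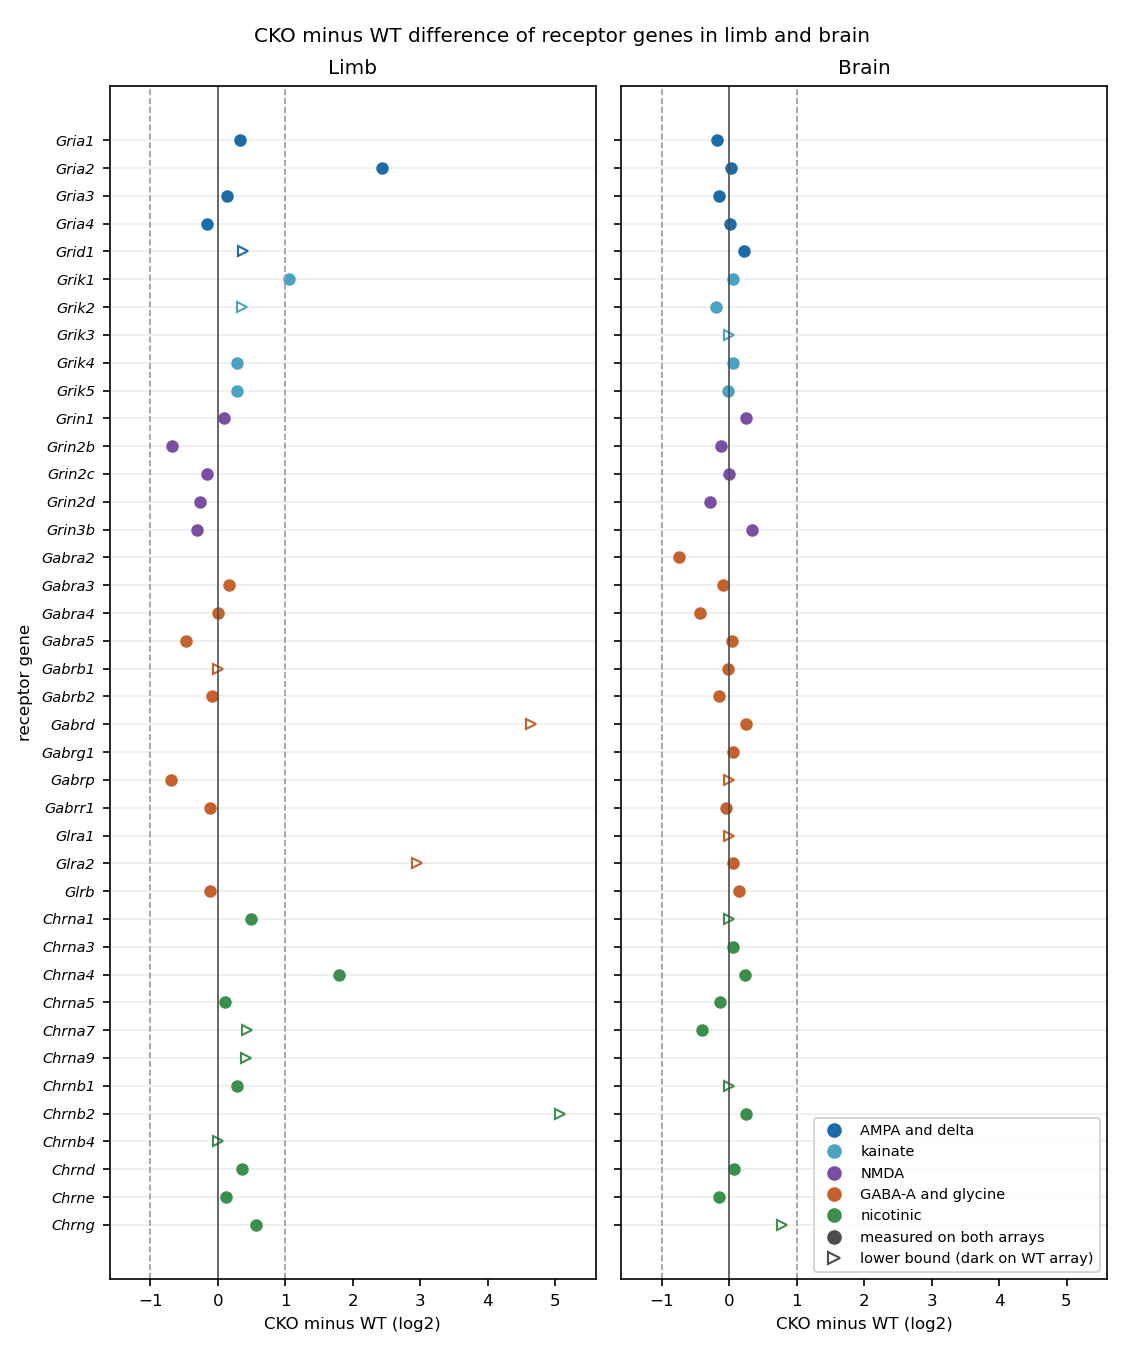
CKO minus WT difference (x axis, log2) in limb (left) and brain (right) for 40 receptor genes that could be compared in either tissue (y axis), coloured by subfamily. Filled circles were measured on both arrays, open triangles are lower bounds, and dashed lines mark a 2-fold difference. In limb 6 of the genes drawn lie beyond the right dashed line, and in brain none lies beyond either.

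AMPA receptors carry most fast excitation, and the GluA2 subunit encoded by Gria2 sets whether they pass calcium. Gria2 was at -1.28 and 1.15 on the WT and CKO limb arrays and at 2.54 and 2.58 on the WT and CKO brain arrays. The CKO limb signal thus lay between that of WT limb and the pair of brain arrays, 5.40-fold above WT limb, which placed Gria2 at rank 67 from the top among 16672 genes measured on both limb arrays. A second Gria2 probe, dark in WT limb, was at least 5.29-fold higher, and another was dark on both limb arrays. The other AMPA genes did not reach 2-fold: Gria1 differed by 0.34 log2, Gria3 by 0.14 and Gria4 by -0.16. Probes disagreed on size or sign here: a second Gria1 probe, measured on both limb arrays, differed by 0.90, and the others of Gria3 by -0.19 and -0.22. Among the delta receptors, which organise synapses rather than carry fast current, Grid1 differed by at least 0.38.

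Gria2 also held the closest match to the Rest-binding element among the receptor gene promoters examined, and its sequence is shown for that reason. RefSeq promoter windows (GRCm38.p6, 250 bases before to 50 after a gene's start) were available for 40 of the 57 receptor genes in 45 windows. They were searched on both strands for the RE1 half-sites TTCAGCACC and GGACAGCGC with 2 free bases between them, 18 scored positions in all. In the Gria2 promoter, at -218 to -109 from the start (chr3:80802944-80803053, minus strand, shown 5′ to 3′ along the gene), the match lies at -173 to -154 on the opposite strand and is in capitals:
Gria2: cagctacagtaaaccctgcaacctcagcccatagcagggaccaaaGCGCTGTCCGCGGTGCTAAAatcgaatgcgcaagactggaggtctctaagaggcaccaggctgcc
It differs from the half-site pair at 1 of 18 positions, and 6 of the 32851 windows in the table (0.0183%) match as well or better. The exact right half-site was in 0.405% of all windows and in 1 of the 45 of receptor genes, that of Gria2. The exact left half-site was in 0.371% of all windows and in 0 of the 45.

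Of the 8 genes that were higher in CKO limb, Gria2, Glra2, Chrna4 and Chrnb2 had a promoter window. Their best matches are set side by side on the strand of the half-sites, with capitals where a base equals the half-site pair, to show how far the other 3 are from it:
Gria2: TTtAGCACCgcGGACAGCGC
Glra2: TTCAaCAgCagGctCAtCtC
Chrna4: acCccCACaagGGgCAGaGC
Chrnb2: TTtcGCctCaaGcACAcCcC
Glra2 differed at 6 positions and Chrna4 and Chrnb2 at 7 each, where the median was 7 both over all windows and over those of receptor genes. A match describes letters and is not evidence of a bound site, and elements outside these 300 bases were not searched. Gabrd and Grik1 had no window.

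**Figure D3:**
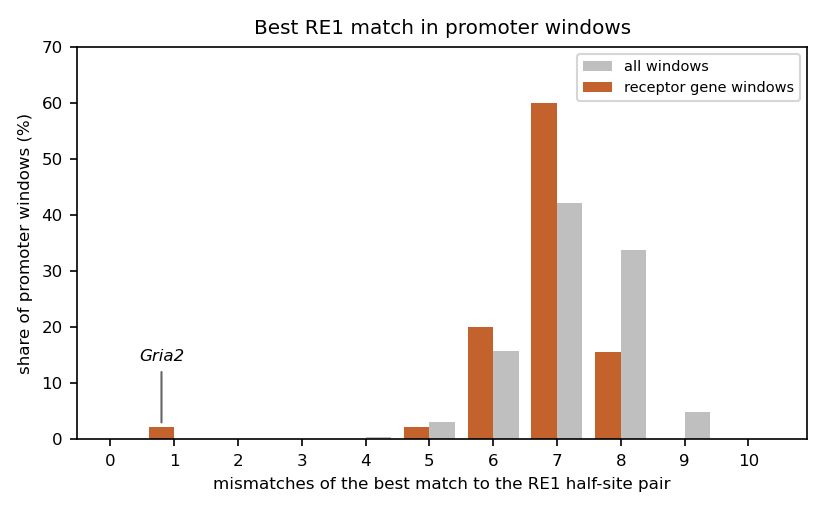
Share of promoter windows (y axis, percent) by the number of mismatches of their best match to the RE1 half-site pair (x axis, of 18 positions), for all 32851 windows (grey) and the 45 of receptor genes (orange). Gria2, with 1 mismatch, stands apart from the other receptor windows, which have 5 to 8.

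Kainate receptors modulate release and excitability. Grik1 was at -4.45 and -3.40 on the WT and CKO limb arrays and at -1.27 and -1.21 on the WT and CKO brain arrays, with both limb signals well under both brain signals. It was 2.07-fold higher in CKO limb, a difference of 1.05 log2 in a range where the technical SD was 0.307. Its second probe, dark in WT limb, was at least 1.56-fold higher, and with normexp background correction the difference was 0.40 and no longer 2-fold. Grik4 and Grik5, the subunits that need a partner to form channels, each differed by 0.29, and Grik2 by at least 0.36.

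NMDA receptors are detectors of paired activity that contain the obligatory subunit encoded by Grin1. None of the 5 NMDA genes compared in limb reached 2-fold, and their median was -0.26 log2. Grin1 differed by 0.09, Grin2c by -0.16 and Grin3b by -0.31. Grin2b, the main partner of Grin1 in the embryonic brain, differed by -0.68 at its brightest probe and -0.65 at another measured on both limb arrays, both at signals under -4. A probe of Grin2b that was dark in WT limb alone had a bound of 0. Grin2d differed by -0.26 in limb and -0.28 in brain.

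GABA-A and glycine receptor genes gave 4 of the 8 genes that were higher in CKO limb, out of 13 compared, and all 4 were dark in WT limb. Gabrd encodes the delta subunit of receptors outside synapses. It was at -4.88 (dark) and -0.24 on the WT and CKO limb arrays and at -3.50 and -3.25 on the WT and CKO brain arrays. CKO limb was the highest of the 4 arrays, at least 25.0-fold above WT limb. Glra2, the alpha subunit of embryonic glycine receptors, was at -7.01 (dark) and -1.99 on the WT and CKO limb arrays and at 0.53 and 0.59 on the WT and CKO brain arrays. CKO limb lay between dark WT limb and the brain arrays, at least 7.75-fold above WT limb.

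Besides the 4 higher genes, no GABA-A or glycine gene had a measured difference or a bound of 2-fold or more in limb. Glrb, the beta subunit that ties glycine receptors to gephyrin, differed by -0.11 and Gabra3, Gabra4 and Gabrb2 by -0.09 to 0.16. Gabrp differed by -0.69, where the technical SD was 0.0333, and Gabra5 by -0.47, where it was 0.307. Gabrp is an epithelial subunit, and the epidermis was not measured apart from the rest of the limb. In whole tissue, fewer cells of a type and less RNA per cell cannot be told apart.

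Neuronal nicotinic receptors of the brain are mostly built from the alpha4 and beta2 subunits, and both of these genes were higher in CKO limb. Chrnb2 was at -7.15 (dark) and 0.13 on the WT and CKO limb arrays and at 0.75 and 1.0 on the WT and CKO brain arrays. Its CKO limb signal came close to the brain arrays and was at least 33.8-fold above WT limb, the largest bound among receptor genes. Chrna4 was at -3.10 and -1.31 on the WT and CKO limb arrays and at 0.41 and 0.65 on the WT and CKO brain arrays. It was 3.46-fold higher, rank 124 among the 16672 genes measured on both limb arrays. A second Chrna4 probe was dark in WT limb, and its bound was 0.01 log2. Of the ganglionic subunits, Chrna5 differed by 0.10 and Chrnb4 had a bound of 0. Chrna7 and Chrna9, which can form channels alone, differed by at least 0.43 and 0.42.

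The sizes depended on the background correction. With normexp the log2 differences were smaller but still at least 2-fold for Chrnb2 (at least 3.62), Gabrd (at least 3.01), Glra2 (at least 1.62), Gria2 (2.24) and Chrna4 (1.28). With the mean of all probes in place of the brightest, Gria2 was 1.44 higher. Chrnb2, Gabrd and Glra2 rest on 1 probe each, so they have no second probe to compare.

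**Figure D4:**
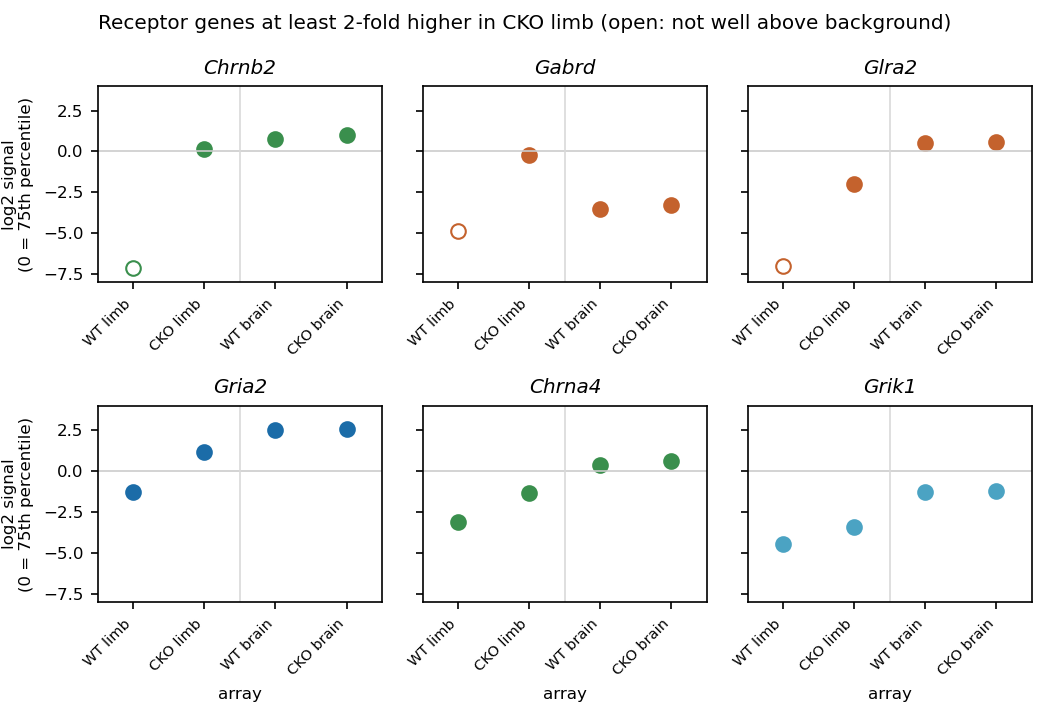
Log2 signal (y axis, 0 = 75th percentile of the array) on each of the 4 arrays (x axis) for 6 of the 8 receptor genes at least 2-fold higher in CKO limb than in WT limb, 1 panel per gene, with open circles where the signal was not well above background. Gabrd alone has its highest signal in CKO limb, at -0.24.

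**Figure D5:**
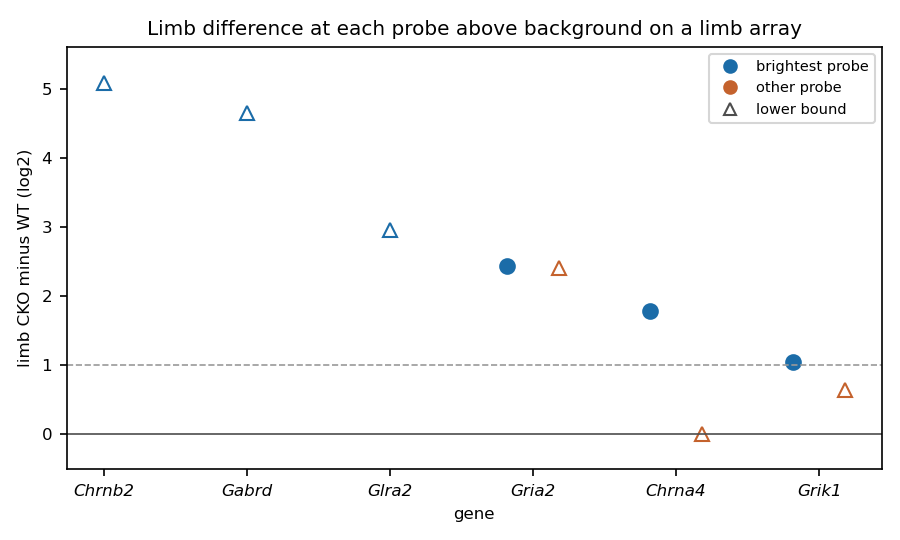
CKO minus WT difference in limb (y axis, log2) at each probe above background on a limb array for the same 6 genes (x axis); blue marks the brightest probe, orange the others, circles were measured on both arrays and triangles are lower bounds. The 2 probes of Gria2 lie at 2.43 and 2.40, and the second probe of Chrna4 has a bound of 0.01.

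None of the muscle nicotinic genes reached 2-fold in limb. Chrng differed by 0.57 log2, Chrna1 by 0.49, Chrnd by 0.36, Chrnb1 by 0.29 and Chrne by 0.12. Skeletal muscle markers lay in the same range, with a median difference of 0.47 over 12 genes, 11 of 12 above 0, and a summed signal of 195.7 in WT limb and 268.7 in CKO limb as multiples of the 75th percentile. Such a sum runs over the markers detected on that array and is weighted to the brightest probes. The part of skeletal muscle in the muscle nicotinic differences was not tested.

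Neuron markers also differed in limb. Their median difference was 0.73 log2 over 10 genes. At least 2-fold higher were 3 of them (30.0%, against 2.49% of all genes compared), and 0 were lower (against 2.16%). Their summed signal was 17.8 in WT limb, 21.8 in CKO limb and 385 in WT brain. In limb this sum was weighted to Uchl1, at 3.75 log2 on both arrays. Elavl3, an RNA-binding protein of neurons, was at least 4.69 log2 higher in CKO limb, whereas the difference was 0.06 for Mapt and -0.00 for Uchl1. Schwann cell and neural crest markers had a median of 0.12 over 5 genes, with 0 of 5 at 2-fold. Red cell markers had a median of -1.70, with 4 of 5 genes at least 2-fold lower in CKO limb (80.0%, against 2.16% of all genes). Their summed signal was 26.1 in WT limb and 7.82 in CKO limb. The part of these cells in the receptor differences was not tested.

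No cluster of neighbouring receptor genes had more than 1 gene at least 2-fold higher in CKO limb. By gene order in RefSeq, 27 of the 57 genes lie in 10 clusters of neighbours less than 1000000 bases apart. Gria2 and Glrb are neighbours on chromosome 3, where Gria2 differed by 2.43 log2 and Glrb by -0.11. Chrnd and Chrng are neighbours on chromosome 1, with 0.36 and 0.57. In the cluster of Gabrg1, Gabra2, Gabra4 and Gabrb1 on chromosome 5, no measured difference or bound reached 2-fold in limb. Gabra4 differed by 0.01, Gabrb1 had a bound of 0, and Gabrg1 and Gabra2 were dark.

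The levels reached in CKO limb were then set against WT brain, gene by gene on the same probe. CKO limb had 961% of the WT brain signal for Gabrd, which has 1 probe. It had 65.1% for Chrnb2, 38.1% for Gria2, 30.5% for Chrna4, 22.8% for Grik1 and 17.4% for Glra2. Among genes that at the brightest probe differed by less than 1.5-fold in limb and were far brighter in brain, the shares included 5.34% for Gabrb2, 7.54% for Gria4 and 9.61% for Gria1. Low shares follow from that choice of genes. Other genes within 1.5-fold in limb had higher shares, such as 46.7% for Grik5, 51.7% for Grik4 and 97.4% for Grin2d. These shares compare single arrays of different tissues and have no replicate check.

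The third comparison asked the same of brain. Of 42 compared, 0 were at least 2-fold higher in CKO brain (against 1.37% of all 18947 genes compared) and 0 at least 2-fold lower (against 1.22%), and the median was 0.00, against -0.01 over all genes. These counts are near the shares over all genes. Over the 36 measured on both brain arrays the differences ran from -0.74 to 0.34. Of the genes that were higher in CKO limb, Gria2 differed in brain by 0.04, Grik1 and Glra2 by 0.06, Chrna4 by 0.24, Gabrd by 0.25 and Chrnb2 by 0.26.

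Among genes measured on both brain arrays, the largest difference was that of Gabra2, an alpha subunit abundant before birth, which was at -0.10 and -0.84 on the WT and CKO brain arrays. It was lower in CKO brain at all 3 of its probes, by -0.74, -0.65 and -0.76 log2, with a technical SD of 0.0300 where signals were -2 or more. Gabra4 differed by -0.43, Chrna7 by -0.40 and Grin3b by 0.34. Gabrg1 differed by 0.06 ± 0.0527 (SD, n = 10 spots of its probe on each array). Chrng, dark in WT brain, was at least 0.78 higher in CKO brain at its brightest probe, a bound under 2-fold. Its other probe was dark on both brain arrays. Cartilage markers had a median difference of 2.91 log2 over 9 genes in brain, with 7 at least 2-fold higher (77.8%, against 1.37% of all genes). Skeletal muscle markers had one of 0.60 over 9 genes, with 1 at least 2-fold higher (11.1%). The summed cartilage signal was 6.90 in WT brain and 17.4 in CKO brain, and its part in the receptor differences was not tested.

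Genotype was also fitted over both tissues in limma, with tissue as a block, for the 24 receptor genes detected on all 4 arrays. It called 0 of them and 0% of the 15630 genes tested in either direction, and the smallest adjusted p among receptor genes was 0.660. At an unadjusted p under 0.05 there were 984 of the 15630 genes tested and 1 of the 24 receptor genes. The receptor count is thus no higher than the share over all genes. That gene, Grin2d, was lower in CKO in both tissues, by -0.27 ± 0.0535 log2 (SE, unadjusted p = 0.0223, adjusted p = 0.660 by limma). Its SE measures how alike the 2 tissues were, not a spread between replicate samples. Gria2 had an estimate of 1.24 ± 0.754 and Chrna4 one of 1.02 ± 0.488, from a limb difference far above the brain difference in each case. Genes dark on an array, such as Chrnb2, Gabrd and Glra2, could not enter this fit. Whether the genotype difference itself differs between tissues cannot be tested with 1 array per group.

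Partner proteins of these receptors included a few genes with large limb differences. Among auxiliary and anchoring proteins of glutamate receptors, 3 of 26 compared were at least 2-fold higher in CKO limb (11.5%, against 2.49% of all genes) and 0 lower (against 2.16%), with a median of 0.22 log2. Cacng2 (stargazin), which brings AMPA receptors to the surface, was 6.24-fold higher. Nptx2, a secreted protein that clusters AMPA receptors, was at least 2.82-fold higher, and Cacng5, a relative of Cacng2, at least 2.28-fold. Among anchoring and assembly proteins of GABA-A, glycine and nicotinic receptors, 2 of 21 were higher (9.52%) and 0 lower, with a median of 0.01. Lhfpl4, which holds GABA-A receptors at inhibitory synapses, was 17.5-fold higher, and Ric3, a chaperone of nicotinic receptors, at least 13.6-fold. Gphn, the gephyrin scaffold, differed by -0.09, and the muscle anchor Rapsn by 0.37.

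Other channels and receptors for transmitters also held genes past 2-fold. In limb 10 further ligand-gated channels were compared, of which 3 acid-sensing channels were higher by at least 2-fold (30.0%, against 2.49% of all genes) and 0 lower: Asic1 by 3.91-fold, Asic2 by 2.47-fold and Asic3 by at least 2.09-fold. Of 6 metabotropic glutamate and GABA-B receptors compared, 1 was at least 2-fold higher (16.7%) and 0 lower, and the medians of these lists were 0.00 and 0.04 log2. In brain, 27, 20, 10 and 9 genes of the 4 lists were compared, in the order given. Of these, 1 was at least 2-fold higher (against 1.37% of all genes), Rapsn as a bound of 2.03-fold. Lower by at least 2-fold was 1 (against 1.22%), the sensory neuron ATP receptor P2rx3 by 4.14-fold. Both counts lie near the shares over all genes. In limb P2rx3 differed by -0.35.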

How the data were processed

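Total RNA was labelled with Cy3 and hybridised to 1 Agilent array per sample, per the labels' protocols. The submitters' processing notes name Agilent Feature Extraction, version 9.5.3.1, for the scanner output. The deposited intensities are background-subtracted and detrended within each array, with no scaling between arrays, per the file headers. The series table held the same intensities, to within 0.0071 log2 over 45018 spots. Control and outlier spots were left out, log2 signals were set relative to the 75th percentile of their array, and spots of a probe were averaged. Where 1 array was dark, the bright signal was set against the higher of that array's lowest signal well above background and the probe's own. Probes outside the rule took current RefSeq symbols by accession, symbol or synonym where these existed. Calculations used Python 3.11.15, numpy 2.4.6, pandas 2.3.3, R 4.3.3 and limma 3.58.1 with Benjamini-Hochberg adjustment; scripts were tested on simulated data. All receptor genes may be named; values on every array are given for those 2-fold different and for the brightest of each subfamily, and other lists give up to 4 genes past 2-fold. Genes named beyond that were chosen after their values were seen. Single values of 4 receptor genes and of 1 gene of the other lists are not reported here, but these genes are in all counts and medians. Members and lists were chosen with earlier results of these data known. The number of arrays limits the precision.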

Additional observations from a re-analysis of the deposited data

How the results depend on the processing

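With 1 array per group, the count of 8 receptor genes at least 2-fold higher in CKO limb rests on 3 measured on both arrays and 5 bounds. Restricted to genes measured on both arrays it was 3, and this restriction gave 15 genes higher and 2 lower in WT brain against WT limb. The limb median of 0.16 log2 was 0.10 with that filter, 0.007001 with the mean of all probes and 0.07792 with normexp background correction. At a 1.5-fold threshold 2 receptor genes were lower in CKO limb, 1 was higher and 1 lower in CKO brain. Among the single genes named, Grik1 fell under 2-fold, as given with its values. Chrnb2, Gabrd, Glra2, Gria2 and Chrna4 did not under any alternative run that gave them a value. Chrnb2, Gabrd and Glra2 have 1 probe each, so the mean of all probes could not change them. As bounds they had no value when restricted to genes measured on both arrays. Bounds moved with the processing, for Chrnb2 from 3.62 to 5.14 log2 and for Gabrd from 3.01 to 4.71 over 6 settings. Both were lowest with normexp background correction and highest with quantile normalization. The other 59 of 68 recomputed counts and medians stayed within 1.5 times the count, or within the technical SD, of the reported value. The median of all probes differed by -0.09 log2 in limb and -0.05 in brain, and by no more than 0.1003 in size under any scaling. No paired analysis was possible because each group had 1 array and the labels number no replicates. Dim signals limit what can be compared: 13 receptor genes were dark on every array.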
